A study of Mus musculus with 2 samples.

Results

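The miR-200 family and the miR-183 cluster were read in small RNA libraries of mouse testis by taking the rows of 10 mature miRNAs out of the 1905 counted. Of these, 7 belong to the miR-200 family (mmu-miR-200a-3p, mmu-miR-200a-5p, mmu-miR-200b-3p, mmu-miR-200b-5p, mmu-miR-200c-3p, mmu-miR-141-3p and mmu-miR-429-3p) and 3 to the miR-183 cluster (mmu-miR-183-5p, mmu-miR-96-5p and mmu-miR-182-5p). The prefix mmu, for mouse, is left out below except where a level is first given. The study compared C57BL/6 males (C57BL/6J in its methods) at postnatal day 60 that had drunk water with vehicle (control, DMSO and ethanol) with males exposed to a mixture of endocrine-disrupting chemicals (EDCs). The mixture held 3 phthalates (DEHP, DBP and BBP) at 0.3 mg/kg daily of each and 2 alkylphenols (NP and OP) at 0.05 mg/kg daily of each, given from conception through the mother and then in the drinking water. Total RNA of decapsulated testes was pooled within each group and each pool gave 1 library, so n = 1 library per condition and the spread between mice cannot be seen. Whole-testis RNA mixes germ cells, Sertoli cells, interstitial cells and ducts, and fewer cells of a type cannot be told apart from less miRNA per cell.

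miRNAs guide Argonaute proteins to messenger RNAs mainly through the seed, bases 2 to 8 counted from the 5′ end, so that miRNAs with the same seed share most of their targets. The miR-200 family is known for keeping cells epithelial: it represses Zeb1 and Zeb2, transcription factors that silence E-cadherin. In the male reproductive tract it is known from the epithelium of the epididymis, and in female mice miR-200b and miR-429 act in the pituitary to allow ovulation. The miR-183 cluster is known from sensory organs such as photoreceptors and the hair cells of the inner ear, where mutations in the seed of miR-96 cause deafness in mice.

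The sequences show which members can act alike and which can be mistaken for each other in counting. They are from RefSeq (GRCm38.p6), written 5′ to 3′ with the seed in capitals, and all 10 members were matched by name.
miR-200b-3p: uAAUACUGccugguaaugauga
miR-200c-3p: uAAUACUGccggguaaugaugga
miR-429-3p: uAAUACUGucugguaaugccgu
miR-200a-3p: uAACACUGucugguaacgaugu
miR-141-3p: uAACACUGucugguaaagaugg
miR-200b-5p: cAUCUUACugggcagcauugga
miR-200a-5p: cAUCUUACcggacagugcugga
miR-183-5p: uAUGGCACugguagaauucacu
miR-96-5p: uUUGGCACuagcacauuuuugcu
miR-182-5p: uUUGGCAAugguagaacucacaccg

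The 3p members of the miR-200 family fall into 2 seed groups that differ by 1 base, U4C from miR-200b-3p to miR-200a-3p (positions counted from 1 at the 5′ end). miR-200b-3p, miR-200c-3p and miR-429-3p carry AAUACUG, and miR-200a-3p and miR-141-3p carry AACACUG. miR-200b-5p and miR-200a-5p also share a seed with each other. In the miR-183 cluster no seed was shared: miR-96-5p differed from miR-182-5p in the seed by C8A, and miR-183-5p from miR-96-5p by A2U. No other miRNA of the table with a RefSeq sequence (1621 of 1905 had one) carried the seed of a member. miR-200a-3p and miR-141-3p are alike over their first 16 bases and differ by C17A and U22G, while miR-200b-3p and miR-200c-3p are alike over 10 bases and differ by U11G and A22G. Reads as short as 12 nucleotides were kept in counting, so that a short read within the 16 bases shared by miR-200a-3p and miR-141-3p may have been placed on both, and the value of miR-141-3p is uncertain for that reason.

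The 8 hairpins lie in 3 clusters, all on the minus strand of mm10 (GRCm38), and each cluster is known to be made as a shared primary transcript. miR-200b, miR-200a and miR-429 lie within 1846 bases of chromosome 4 (156053905 to 156055750), in an intron of Ttll10 and inside the non-coding gene Gm13648, in which miR-429 overlaps an exon. miR-200c and miR-141 lie within 477 bases of chromosome 6 (124717914 to 124718390), in an intron of Gm15884, and miR-141 also overlaps an exon of Gm29008. miR-183, miR-96 and miR-182 lie within 3820 bases of chromosome 6 (30165918 to 30169737), outside annotated genes, with Rncr4 on the plus strand 3156 bases from miR-183 as the nearest. The 2 clusters of chromosome 6 are 94548177 bases apart.

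The libraries held 550261 mature miRNA reads in control and 501539 in exposed mice, with 771 and 760 mature miRNAs at 1 read or more. The miRNAs fixed as germ cell markers, led by miR-34c-5p, took 18.8% and 17.7% of the reads, and miR-202-5p and miR-202-3p of Sertoli and other somatic gonad cells 0.437% and 0.479%. Both sets were thus well above 0 in the tissue labelled testis. For a miRNA with 0 reads the depth allows a share of up to 0.000670% in control and 0.000736% in exposed mice (upper end of the exact 95% interval). Shares and ratios of miRNAs with reads have exact 95% intervals (Clopper-Pearson). The intervals and this limit cover counting error only, and PCR copies of a molecule are counted as separate reads.

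All members together made up 0.375% of all mature miRNA reads in control and 0.380% in exposed mice, and the miR-200 family supplied most of it. Since a read stands for a whole mature miRNA, no length correction was applied. The efficiency of ligation differs between sequences, however, and the order of levels among miRNAs is that of their reads. mmu-miR-200a-3p led in both libraries, with 821 reads in control, or 0.149% (0.139 to 0.160), at rank 94 of all miRNAs. In exposed mice it had 818 reads, or 0.163% (0.152 to 0.175), at rank 88. mmu-miR-200b-3p, from the same cluster, followed with 662 reads, or 0.120% (0.111 to 0.130), in control and 525 reads, or 0.105% (0.0959 to 0.114), in exposed mice. These intervals lay apart from each other and from those of the next members in both libraries.

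miR-182-5p and miR-183-5p came next and could not be told apart in level. mmu-miR-182-5p took 0.0340% of the reads in control and 0.0385% in exposed mice, and mmu-miR-183-5p 0.0323% and 0.0435%. miR-200c-3p and miR-429-3p formed the next pair, with 0.0151% and 0.0149% in control and 0.0106% and 0.0120% in exposed mice, and their intervals overlapped as well. mmu-miR-96-5p followed, at 24 reads in control against 17 after exposure. The last 3 places were held by miR-200a-5p, miR-141-3p and miR-200b-5p with 5 to 13 reads per library, and each interval from miR-96-5p on overlapped that of the next. Further apart in the order, the intervals of miR-96-5p and miR-200b-5p did not overlap in control. The pairs miR-182-5p with miR-183-5p and miR-200c-3p with miR-429-3p changed places between the libraries, as did miR-200a-5p with miR-200b-5p, in each case within overlapping intervals.

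**Figure D1:**
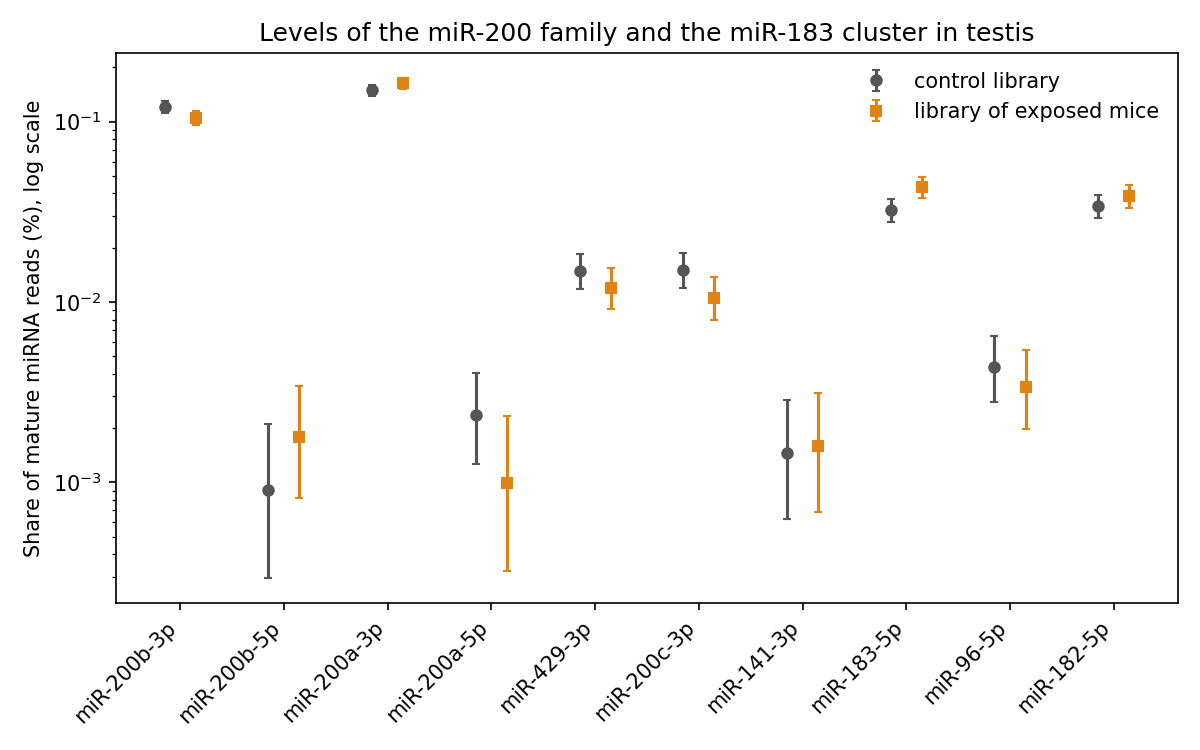
Share of all mature miRNA reads (%, log axis) taken by each of the 10 members in the control library (grey circles) and in the library of exposed mice (orange squares), with exact 95% intervals for counting error. miR-200a-3p and miR-200b-3p lie above 0.1% in both libraries, and miR-200a-5p, miR-200b-5p and miR-141-3p lie near 0.001%.

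Each hairpin gave reads almost from a single arm, and the arm in use was the 3p arm throughout the miR-200 family and the 5p arm throughout the miR-183 cluster. For miR-200a the 3p arm took 98.4% of the hairpin's reads in control (97.3 to 99.2) and 99.4% in exposed mice (98.6 to 99.8). For miR-200b it took 99.3% (98.3 to 99.8) and 98.3% (96.8 to 99.2). The intervals of the libraries overlapped for both hairpins. miR-429-5p had 1 read in control and 0 in exposed mice. No read was found in either library for miR-200c-5p, miR-141-5p, miR-183-3p, miR-96-3p and miR-182-3p, which the depth limits to shares under those given above for 0 reads. Within a hairpin of few reads the arm share is less certain. For miR-141, with 8 reads per library, the interval of the 3p share was 63.1 to 100%. For miR-96 that interval reached up to 14.2% in control and 19.5% in exposed mice.

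The comparison of exposed with control mice asks whether the mixture of EDCs went along with other levels of these miRNAs in the testis. Counts were divided by size factors (1.07 for control and 0.937 for exposed mice). A 2-sided exact binomial test, with Benjamini-Hochberg adjustment, was then made on the exposed share of the reads of every mature miRNA that reached 10 reads over the pair of libraries, 484 in all. The test compares the libraries and not the conditions, and there is no replicate check. The words rose and fell are kept for an adjusted p under 0.05 together with a log2 ratio (exposed over control) of 0.5 or more, or of −0.5 or less. All 10 members had enough reads to be tested, 4 of them with fewer than 50 reads. None of the 10 rose or fell, against a background of 2.89% of all tested miRNAs (0.62% that rose and 2.27% that fell). Without the size minimum 1 of 10 passed the test, miR-183-5p, which was higher, against a background of 17.6% (8.26% higher and 9.3% lower). Of the 4 members with at least 200 reads over both libraries 1 passed, or 25%, against 39.0% of tested miRNAs of that depth. The median log2 ratio of the members was 0.02, with 5 above 0 and 5 below, and that of all tested miRNAs −0.04. A log2 ratio beyond 0.5 in either direction, whatever its p, was found for 2 of 10 members and for 21.7% of all tested miRNAs, and both of these members, miR-200b-5p and miR-200a-5p, had fewer than 20 reads. Each of these shares among the members lay near or under that of all tested miRNAs.

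**Figure D2:**
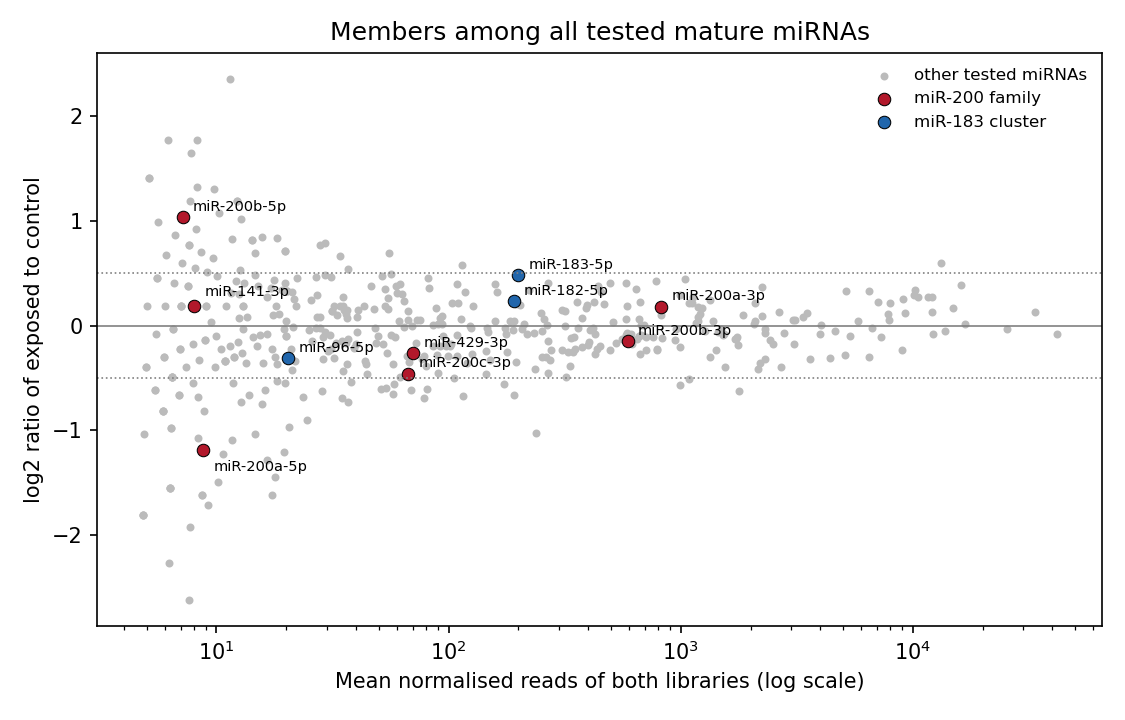
log2 ratio of exposed to control mice (vertical axis) against the mean normalised reads of both libraries (log axis) for 484 tested mature miRNAs, with the miR-200 family in red, the miR-183 cluster in blue and the others in grey. Dotted lines mark 0.5 and −0.5, and the 8 members with a ratio inside them lie within the cloud of the other miRNAs, as do miR-200b-5p and miR-200a-5p outside them at under 10 mean reads.

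In the cluster on chromosome 4, the summed reads hardly differed between the libraries. All arms together had 1584 control reads against 1417 in exposed mice, a log2 ratio of 0.03 (−0.08 to 0.13) that went to −0.03 with scaling by total reads. miR-200a-3p was at 0.18 (0.04 to 0.32, adjusted p = 0.0628 by the exact binomial test), just short of the threshold, and with scaling by TMM it passed the test at 0.21 (adjusted p = 0.0233), under the size minimum. With scaling by total reads it was at 0.13 (−0.01 to 0.27, adjusted p = 0.228), an interval that holds 0. miR-200b-3p was at −0.15 (−0.32 to 0.02, adjusted p = 0.243). With scaling by total reads it was at −0.20 (−0.37 to −0.03, adjusted p = 0.0743 by the exact binomial test), an interval below 0 that did not pass the adjusted test. miR-429-3p, with the seed of miR-200b-3p, had 82 and 60 reads and a log2 ratio of −0.26 (−0.77 to 0.23, adjusted p = 0.591). Above 0 in this cluster were thus miR-200a-3p and, on few reads, miR-200b-5p, and below 0 the other 3 members.

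Read as shares of the member reads of this cluster, miR-200a-3p took 51.9% in control (49.4 to 54.4) and 57.7% in exposed mice (55.1 to 60.3), intervals that did not overlap. miR-200b-3p took 41.8% (39.4 to 44.3) and 37.1% (34.5 to 39.6), and miR-429-3p 5.18% and 4.23%. These shares do not depend on the scaling of the libraries, but they were not tested and no replicate shows how much they vary between mice. How often shares lie apart in other clusters was not counted. Of tested miRNAs with at least 200 reads over both libraries, 39.0% passed the exact binomial test at any size.

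The minor arms of miR-200b and miR-200a stood in opposite directions to their major arms, on very few reads. miR-200b-5p went from 5 reads in control to 9 after exposure (log2 ratio 1.03, −0.70 to 2.96, adjusted p = 0.554), and miR-200a-5p had 13 and 5 (−1.19, −3.03 to 0.39, adjusted p = 0.370, both by the exact binomial test). Both intervals hold 0 and the log2 ratio of the other arm. At an equal level in the libraries, the interval of a miRNA with the 14 reads of miR-200b-5p would still reach up to a 3.80-fold higher level. What size of change could be detected was not computed. For miR-200a-3p with 1639 reads the same interval would reach 1.10-fold. That limit is one of counting before adjustment: miR-200a-3p stood at 1.13-fold and did not pass the adjusted test.

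In the cluster of miR-200c and miR-141 on chromosome 6, the sum was lower in exposed mice, within counting error. It went from 91 to 61 reads (log2 ratio −0.39, −0.88 to 0.09). miR-200c-3p went from 83 reads to 53 (−0.46, −0.99 to 0.05, adjusted p = 0.224 by the exact binomial test), the lowest log2 ratio among the 6 members with at least 50 reads. miR-141-3p had 8 reads in each library (0.19, −1.43 to 1.80, adjusted p = 0.939). The cluster gave 5.44% of the reads of the miR-200 family in control (4.40 to 6.63) and 4.13% in exposed mice (3.17 to 5.27), and these intervals overlapped.

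Grouped by seed rather than by locus, the 3p arms of the family were balanced in control mice and leaned to AACACUG in exposed mice. miR-200a-3p and miR-141-3p together had 829 control reads against 826, a log2 ratio of 0.18 (0.04 to 0.32). miR-200b-3p, miR-200c-3p and miR-429-3p together had 827 and 638, a log2 ratio of −0.19 (−0.34 to −0.04). The seed AACACUG thus stood on 50.1% of the 3p reads in control (47.6 to 52.5) and on 56.4% in exposed mice (53.8 to 59.0). miR-200a-3p holds nearly all reads of the AACACUG group and miR-200b-3p most of the other, so that this is largely the same pair of miRNAs as in the cluster on chromosome 4. With scaling by total reads the log2 ratio was 0.13 for AACACUG and −0.24 for AAUACUG. No p is given for these sums. The miR-200 family as a whole had 1674 and 1478 reads, a log2 ratio of 0.01 (−0.09 to 0.11), which went to −0.05 with scaling by total reads.

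**Figure D3:**
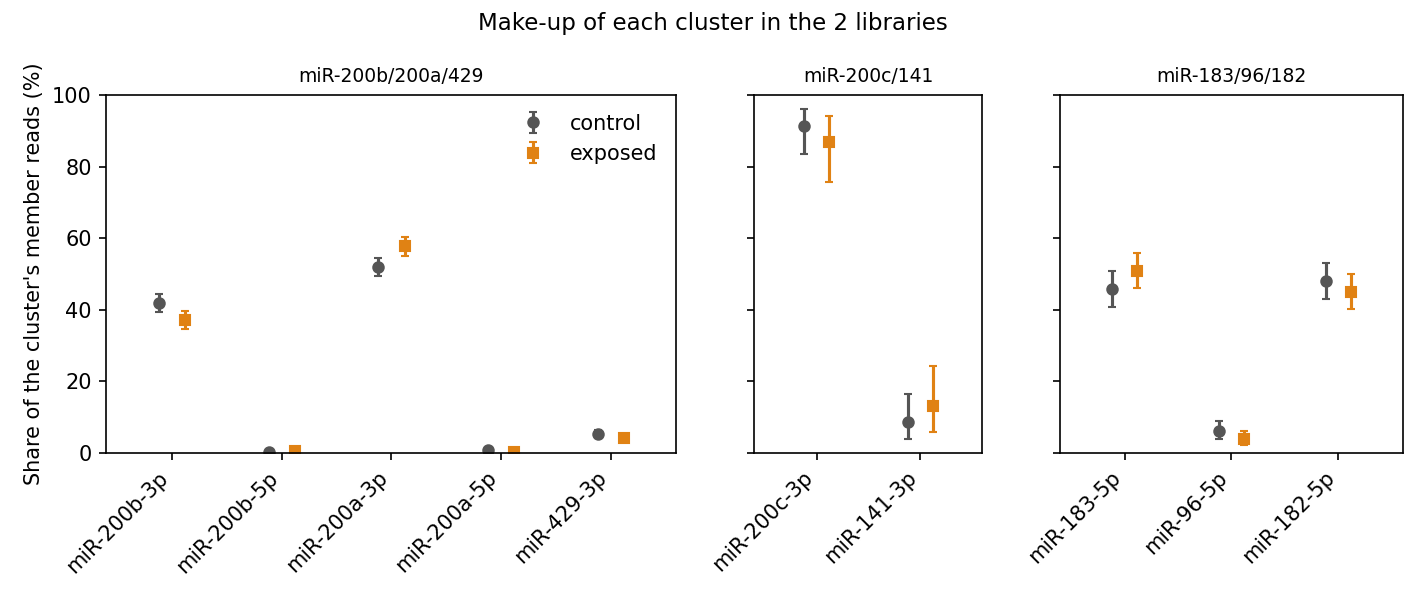
Share of the member reads of each cluster (%, vertical axis) taken by each member in control (grey circles) and exposed mice (orange squares), with exact 95% intervals for counting error. The intervals of the libraries lie apart for miR-200a-3p, at 51.9% and 57.7%, and overlap for each of the other members. How often such intervals lie apart in other clusters was not counted.

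The summed reads of the miR-183 cluster were 389 in control and 428 in exposed mice, a log2 ratio of 0.32 (0.12 to 0.53). No p is given for this sum. Of the cluster's 3 members only miR-183-5p passed the test at any size, and miR-96-5p stood below 0. miR-183-5p went from 178 reads in control to 218 after exposure, or from 166.9 to 233 normalised reads, a 1.39-fold higher level (1.14 to 1.71). Its log2 ratio of 0.48 (0.19 to 0.77, adjusted p = 0.00777 by the exact binomial test) lay just under the size minimum. With scaling by TMM it was 0.51 and miR-183-5p counted as risen, and with scaling by total reads it was 0.43. edgeR's exact test, with a common dispersion fitted as if the pair of libraries were replicates, gave miR-183-5p an unadjusted p of 0.0659 and an adjusted p of 0.956. That test left 0 of the 484 miRNAs past an adjusted p of 0.05 and 17 past an unadjusted one, none of them a member.

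miR-182-5p and miR-96-5p come from the same cluster. miR-182-5p went from 187 reads to 193 (log2 ratio 0.23, −0.07 to 0.53, adjusted p = 0.312), and miR-96-5p from 24 to 17 (−0.31, −1.30 to 0.65, adjusted p = 0.809, both by the exact binomial test). The intervals of all 3 members overlap, and whether miR-183-5p moved more than the other two was not tested. Within the cluster miR-183-5p took 45.8% of the reads in control (40.7 to 50.9) and 50.9% in exposed mice (46.1 to 55.8), miR-182-5p 48.1% and 45.1%, and miR-96-5p 6.17% and 3.97%, with overlapping intervals for each. The cluster as a whole gave 18.9% of the member reads in control (17.2 to 20.6) and 22.5% in exposed mice (20.6 to 24.4).

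**Figure D4:**
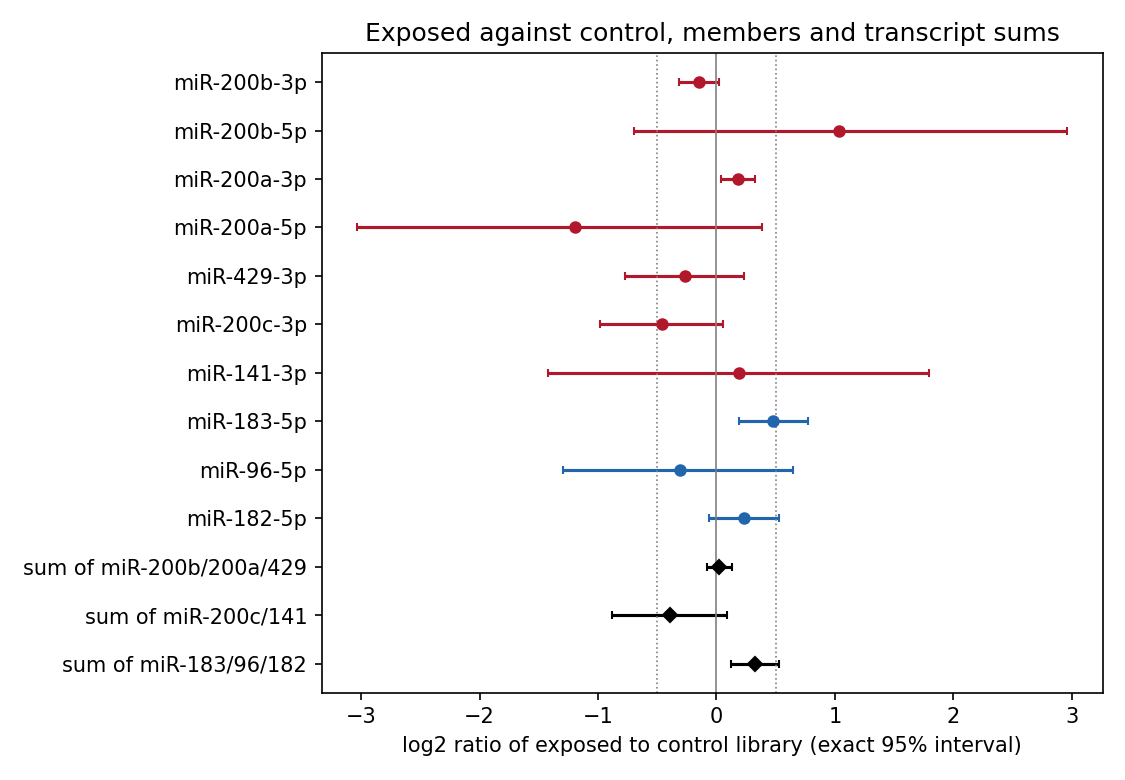
log2 ratio of exposed to control mice with its exact 95% interval (horizontal axis) for the 7 members of the miR-200 family (red), the 3 of the miR-183 cluster (blue) and the sum of each of the 3 clusters (black diamonds). The interval of miR-183-5p lies above 0, from 0.19 to 0.77, that of miR-200a-3p starts at 0.04, and the intervals of the other 8 members hold 0. The intervals are not adjusted, and those off 0 were not counted over all tested miRNAs. At an adjusted p under 0.05 by the exact binomial test, 1 of the 10 members passed, against 17.6% of all tested miRNAs.

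Other miRNAs known from epithelia were read beside the members. Of 7 on the list, 6 had enough reads and none rose or fell. Without the size minimum, 2 of these passed the test as higher and 2 as lower, against 8.26% and 9.3% of all tested miRNAs, and 39.0% in either direction of those with at least 200 reads over both libraries. The median log2 ratio of the 6 was −0.21. miR-203-3p, known from stratified epithelia, had 3582 and 3415 reads, 4.36 and 4.17 times the reads of miR-200a-3p, and a log2 ratio of 0.12 (adjusted p = 0.00533 by the exact binomial test). miR-375-3p, known from endocrine and secretory cells, had 1638 and 1225 reads (−0.23, adjusted p = 0.000193). miR-192-5p and miR-194-5p, both known from gut and kidney epithelium, stood at 0.35 and −0.39 (adjusted p = 0.000193 and 0.00533), and miR-31-5p with 116 and 90 reads at −0.18 (adjusted p = 0.683). miR-205-5p, a marker of basal epithelial cells, was almost absent from the counts, at 8 reads in control and 2 after exposure. The summed reads of miR-203-3p, miR-205-5p and miR-375-3p were 5228 in control and 4642 after exposure (log2 ratio 0.02, −0.04 to 0.07). The part of the epithelial content of the pools in the values of the members was not tested.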

How the data were processed

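RNA of testes from control mice and from mice exposed to the mixture of EDCs was pooled within each group, and each pool was sequenced on a MiSeq (single-end, 65 nucleotides). The authors deposited raw counts, which are whole reads per mature miRNA and not normalised. Per the labels and the methods of the study, reads were checked with FastQC, trimmed with cutadapt, aligned to mm10 with bowtie (up to 3 mismatches, all best alignments) and counted with HTSeq on miRBase v21, and the authors' own normalisation used DESeq. The sources used here give no versions. The line for reads with several alignments is 0 in both libraries, so a read matching several loci may be counted at each. Ambiguous reads name no miRNA and were left out. They made up 0.528% in control and 0.515% in exposed mice of the mature miRNA and ambiguous reads together.

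Size factors came from the median of ratios. miRNAs that reached 10 reads over the pair of libraries entered an exact binomial test (2-sided, Benjamini-Hochberg adjustment over all of them), with exact 95% intervals. With 1 library per group no model with a spread between samples could be fitted. Each choice was also varied on its own: the scaling (TMM from edgeR, the totals, or the totals less the 10 most abundant miRNAs), the read filter (none, or 50), the size minimum (none, or 1.0), a pseudocount of 0.5, and the test (edgeR's exact test, its common dispersion fitted as if the libraries were replicates). The functions were tested on simulated counts with counting error only and no spread between mice. That checks the code and not the error rates for these pools. Named were all members, the other arms of their hairpins and listed miRNAs with at least 50 reads. Also named were the 3 miRNAs, members left out, nearest in level to the deepest member of each group. miR-205-5p was named beyond this rule, after its values were seen. The members and lists were chosen with earlier results of these data known. Hairpin positions are from RefSeq (GRCm38.p6) and host genes from GENCODE M21 of the same build. Software was edgeR 4.0.16 in R 4.3.3, and scipy 1.17.1, pandas 2.3.3 and numpy 2.4.6 in Python 3.11.15.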

Additional observations from a re-analysis of the deposited data

How the results depend on the processing

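No paired analysis was possible because each group had 1 pooled library, and for the same reason none could be left out. The other scalings shifted all log2 ratios by −0.05 (total reads), −0.03 (total reads without the 10 most abundant) and 0.03 (TMM). No member changed direction under any of them or with the pseudocount, the summed reads of each cluster stayed inside their main intervals, and the shares of the arms stayed inside theirs with a pseudocount. With TMM 1 member rose, miR-183-5p at 0.51, and 2 passed the test at any size (miR-183-5p and miR-200a-3p). The filter of 50 reads, under which fewer miRNAs share the adjustment, also gave 2 at any size. Without a size minimum 1 member was called. Among all miRNAs, 3 rose and 11 fell. The number that fell was 17 with scaling by total reads, and 69 were lower at any size there against 45. A size minimum of 1.0 left 1 risen and 4 fallen, no minimum gave 40 and 45, and edgeR's exact test gave 0 and 0 (17 miRNAs had an unadjusted p under 0.05).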

Other observations

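miRNAs linked to the epithelial-mesenchymal transition, the process that the miR-200 family restrains, were read from a list of 10. None of the 10 rose or fell, against 2.89% of all tested miRNAs. At any size 3 were higher and none lower, against 8.26% and 9.3% of all tested miRNAs and, in either direction, 39.0% of those with at least 200 reads over both libraries, a depth that each of the 3 reached. The median log2 ratio of the 10 was 0.04. The 3 were miR-30a-5p (0.27), miR-10b-5p (0.22) and miR-203-3p (0.12). miR-10b-5p, known for promoting migration of tumour cells, had 7844 and 8015 reads, and miR-30a-5p, which represses Snai1, had 11762 and 12469. miR-21a-5p stood at 0.06, miR-101a-3p at 0.08 and miR-101b-3p at 0.02, none past the test. miR-34a-5p, which p53 induces, had 1062 and 847 reads (−0.14), and miR-9-5p, known from neurons, 453 and 351 (−0.18), also not past the test.

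Nearness in level over the 2 libraries was ranked among tested miRNAs that are not members, so that partners from the same cluster were left out. Nearest to miR-200a-3p were miR-425-5p (843 and 796 reads, a distance of 0.05 on the log2 scale), miR-1a-3p (712 and 842, 0.21) and miR-471-5p (924 and 747, 0.21). Nearest to miR-183-5p were miR-760-3p (194 and 197 reads, 0.19), miR-1843a-5p (185 and 191, 0.20) and miR-30c-2-3p (0.20). Over 2 libraries this likeness describes level and ratio only.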
